A study of Mus musculus with 47 samples.

Results

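The 10 genes described here belong to the Notch pathway: the receptor genes Notch1, Notch2 and Notch3, the ligand genes Jag1, Jag2 and Dll1, and the basic helix-loop-helix repressor genes Hes1, Hes6, Hey1 and Heyl. They were chosen by their symbols and are 10 of the 45650 gene symbols in the deposited tables. RNA-seq had been performed on 47 libraries of C2C12, an established mouse myoblast line that leaves the cell cycle and fuses into myotubes when serum is withdrawn. The libraries formed 16 groups of 3 biological replicates each, except that the myoblast-enriched group with dox had 2 (replicates 2 and 3). Every cell line carried a doxycycline-inducible transgene. The iMyoD1 line held dox-inducible Halo-MyoD1 in addition to endogenous MyoD1, the transcription factor that commits cells to the muscle lineage. It was sampled at 0 h (not differentiated, vehicle or dox for 24 h) and after 24, 48 and 120 h of serum starvation with vehicle (no dox) or doxycycline (+dox) throughout. At 120 h the whole culture was sequenced, and so were the cells under 40 µm, enriched in myoblasts, and those over 40 µm, enriched in myotubes. The iCdh23 and iMcam lines, inducible for the cell adhesion genes Cdh23 and Mcam, were sampled after 48 h of serum starvation with vehicle or dox. In the methods the transgenes are driven by a doxycycline-responsive promoter in transposon-modified populations. No group without a transgene received dox, so effects of doxycycline itself and of a transgene cannot be told apart.

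Notch receptors are membrane proteins that are activated by ligands on a neighbouring cell. Ligand binding exposes the receptor to ADAM proteases and gamma-secretase, and the released intracellular domain joins the DNA-binding protein Rbpj and Mastermind coactivators to turn on target genes, among them Hes1, Hey1 and Heyl. In skeletal muscle the pathway is known for holding satellite cells and myoblasts in an undifferentiated state. Hes6 is the exception in the family, known as an inhibitor of Hes1 that is expressed in differentiating cells.

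Levels are CPM, that is counts scaled to library size with TMM factors over all 47 libraries, and the values of a group are listed in replicate order, followed by the mean ± SD where one is given (n = 3 unless stated). A gene rose or fell where the adjusted p of edgeR's quasi-likelihood test was under 0.05 over all genes tested. Changes are on the log2 scale, +dox minus no dox or later minus earlier time. These p-values measure the spread between the libraries at hand, and with bulk RNA fewer cells expressing a gene and less of its RNA per cell cannot be told apart. The libraries held between 15066338 and 50950674 estimated counts (median 22837926). The 10 markers of endothelial, immune and fat cells reached at most 4.04 CPM, while the myotube markers followed the labels: the summed level of 8 myotube genes was between 0.837 and 12.3 CPM at 0 and 24 h and between 12230 and 13510 at 48 h without dox. The 5 myoblast markers (Myod1, Myf5, Cdh15, Des and Pax7) did not mark the undifferentiated cultures, since their sum was between 370.1 and 389 CPM at 24 h and between 2373 and 2577 at 48 h without dox. Total Myod1 RNA did not rise with dox. It was 178 ± 5.77 CPM without and 188 ± 9.59 with dox at 0 h (log2 change 0.09, SE 0.0556, edgeR adjusted p = 0.201) and fell with dox at 24, 48 and 120 h (log2 changes -0.23, -0.36 and -1.62, edgeR adjusted p = 0.00414, 0.000447 and 1.32e-05). Whether the reference held the transgene's sequence is not stated, so this does not test the induction. In iMcam, Mcam rose from 18.1 ± 1.49 to 71.3 ± 3.02 CPM (log2 change 2.02, SE 0.0973, edgeR adjusted p = 0.000124). In iCdh23, Cdh23 was 389 ± 54.2 CPM without and 486 ± 73.6 with dox (log2 change 0.32, SE 0.153, edgeR adjusted p = 0.102), against 7.73 CPM in iMcam without dox. The level in iCdh23 was therefore high in the no dox libraries too, and dox effects in that line compare libraries that all had high Cdh23 RNA.

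MyoD1 binds the E-box, and the muscle form of this motif, CAGCTG, reads the same on both strands. Promoter windows of 250 bases upstream of a RefSeq transcript start (GRCm38.p6) were at hand for 7 of the 10 genes, 9 windows in all. Hes1, Hey1 and Heyl, named above as Notch targets, had no window, so their promoters were not searched for either motif. CAGCTG stood in windows of Jag1, Dll1 and Hes6, 3 of the 7, against 14.7% of 27025 genes and 13.1% of 32536 windows in the table. The sites are printed with the E-box in capitals and all on the minus strand. Notch1, Notch3 and Jag2, whose windows lack these letters, changed with dox as well. A match is a description of the letters and no evidence of binding. The core of the Rbpj motif, TGGGAA on either strand, was in none of the 9 windows and in 21.6% of all windows, which says only that these letters are not there. The Hes6 site at 150 bases before the start of its first window lies inside the gene, in an intron of a longer Hes6 transcript in GENCODE vM21. The site at 171 bases before the start of its second window lies in the stretch directly upstream of the gene, which is given whole. The Jag1 site, 82 bases before the RefSeq start, falls in the first exon of Jag1 in GENCODE vM21. The Dll1 site, 132 bases before the start of its second window, falls in an exon of A930024N18Rik, a noncoding gene on the opposite strand.
Hes6, chr1:91413355-91413384: gctccgccccgcCAGCTGccagagacccgc
Hes6, chr1:91414039-91414288: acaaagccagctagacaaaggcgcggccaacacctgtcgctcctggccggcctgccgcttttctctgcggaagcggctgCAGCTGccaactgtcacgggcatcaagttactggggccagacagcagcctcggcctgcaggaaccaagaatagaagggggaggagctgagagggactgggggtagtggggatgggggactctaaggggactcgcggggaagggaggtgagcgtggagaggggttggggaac
Jag1, chr2:137116585-137116614: ccgcgtttcatgCAGCTGatctgaaaggga
Dll1, chr17:15377047-15377076: tgcattaccataCAGCTGagcgcacaaaga

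The first question was how the pathway's genes change as iMyoD1 cells differentiate without dox. During the first 24 h of serum starvation most of them fell: 6 of the 9 genes tested were lower and 1 was higher, against 37% and 37.3% of all genes. Hes1, the best known Notch target, was 18.6, 17.9 and 19.3 CPM at 0 h and 5.04, 5.64 and 6.06 at 24 h (log2 change -1.70, SE 0.109, edgeR adjusted p = 6.1e-09). Jag2 was 88.7, 90.2 and 94.5 CPM at 0 h and 29.1, 28.8 and 27.8 at 24 h (log2 change -1.64, SE 0.0592, edgeR adjusted p = 1.6e-11). Every 24 h library was below every 0 h library for both genes. Notch1, Notch2, Notch3 and Hes6 fell by 0.77, 0.57, 1.29 and 0.59 on the log2 scale without overlap. The ligand gene Jag1 went the other way, from 7.23, 6.85 and 6.64 to 9.30, 10.6 and 8.90 CPM (log2 change 0.51, SE 0.121, edgeR adjusted p = 0.00156). With 1 spread shared over all 16 groups the calls of Jag1 and Notch2 were lost (adjusted p = 0.162 and 0.0503). Dll1 stayed between 1.14 and 1.87 CPM and Hey1 between 1.06 and 1.49 CPM in these 6 libraries, with overlapping groups. Heyl had 6 to 10 counts per library at 0 h and 3 to 6 at 24 h, too few to be tested. In the same step all 5 cycling markers fell, from between 2298 and 2316 to between 581 and 634 CPM in sum, and 4 of 5 myoblast markers fell and 1 rose. Their part in the fall of the members was not tested.

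At 48 h all 10 genes were higher than at 24 h, 9 of them over 2-fold, against 38.4% of all genes that rose and 19.3% that rose over 2-fold. The median change of the 10 was 3.16 on the log2 scale, while the median of the 14017 genes tested was -0.02. Heyl, a repressor gene expressed in muscle precursors, was 0.122, 0.213 and 0.208 CPM at 24 h and 125, 121 and 122 at 48 h. Its 24 h value rests on 3 to 6 counts per library, so the size of the ratio is uncertain. Heyl entered this fit through its 48 h libraries, so it is counted among the 10 but its test is not read further. Dll1 rose from 1.14, 1.77 and 1.87 to 103, 99.0 and 109 CPM (log2 change 6.01, SE 0.114, edgeR adjusted p = 3.24e-14). Hey1 rose from 1.22, 1.06 and 1.45 to 40.8, 38.8 and 36.6 CPM (log2 change 4.95, SE 0.119, edgeR adjusted p = 3.22e-13). Hes1 and Hes6 followed with 106, 102 and 99.3 and 247, 239.8 and 243 CPM at 48 h, changes of 4.20 and 3.45. No 48 h library of these genes came near a 24 h library. The receptors were spread more widely: Notch1 rose to 185 ± 7.99 CPM and Notch3 to 222 ± 8.96, by 2.87 and 2.40, whereas Notch2 changed least, from 146 ± 12.7 to 167 ± 9.31 (log2 change 0.21, SE 0.0708, edgeR adjusted p = 0.0178). The Notch2 call was lost when any of 3 libraries was left out (adjusted p between 0.0531 and 0.0962). The 0 and 24 h libraries are in one deposited table without a batch label and the 48 and 120 h libraries in others labelled RNAseq_v2, so the step from 24 to 48 h and that batch cannot be told apart. The within-table steps and all dox effects in iMyoD1 do not cross it. All 8 myotube, 4 of 5 myoblast and all 5 cycling markers rose in the same step, the cycling sum from between 581 and 634 to between 1013 and 1037 CPM. Their part in the rise of the 10 genes was not tested.

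From 48 to 120 h the genes parted: 7 fell and 3 rose (34.1% and 33% of all genes). All 5 cycling markers fell in this step as well, from between 1013 and 1037 to between 209 and 248 CPM in sum, 4 of 5 myoblast markers fell, and of the 8 myotube markers 4 rose and 4 fell. The part of these markers was not tested. Hes1 went back to 20.6, 18.2 and 16.4 CPM (log2 change -2.46, SE 0.103, edgeR adjusted p = 3.6e-07), and Jag2 to 26.2, 14.1 and 8.85 CPM (log2 change -2.25, SE 0.307, edgeR adjusted p = 0.000177). Jag1 kept rising and reached 77.7, 74.4 and 78.8 CPM (log2 change 1.26, SE 0.0884, edgeR adjusted p = 3.85e-06), its highest group. Heyl stayed high at 155, 146 and 126 CPM (log2 change 0.24, SE 0.0894, edgeR adjusted p = 0.0409), a call lost in 5 of 6 fits with 1 library left out. Hes1 and Hey1 thus had their highest group at 48 h and Jag1 and Heyl at 120 h. Dll1 and Hes6 fell to 67.3 ± 13.3 and 96.6 ± 18.4 CPM, by 0.61 and 1.32 on the log2 scale. Notch1 spread from 85.5 to 163 CPM at 120 h, and its call (log2 change -0.56, SE 0.188, edgeR adjusted p = 0.0252) was lost in 4 of these fits. Over all 16 groups the ratio of the highest to the lowest group mean was 789 for Heyl, whose lowest group rests on 3 to 6 counts per library, 74.95 for Dll1, 48.5 for Hey1, 42.9 for Hes1, 32.9 for Jag1, 10.9 for Hes6, 9.56 for Jag2, 7.26 for Notch1, 6.23 for Notch3 and 2.58 for Notch2. With dox the same steps gave 0 rising and 8 falling genes from 0 to 24 h (34% and 34% of all genes), 9 rising and 0 falling from 24 to 48 h (36.9% and 35.5%), and 4 rising and 5 falling from 48 to 120 h (34.9% and 38.6%). The counts from 0 to 24 h and from 24 to 48 h include Heyl. It had 4 to 14 counts per +dox library at 24 h and entered these fits through the other time. With dox Heyl rose from 18.6 ± 1.62 at 48 h to 71.0 ± 5.70 CPM at 120 h (log2 change 1.94, SE 0.108, edgeR adjusted p = 5e-09) and Hey1 from 5.10 ± 0.178 to 8.78 ± 1.41 (log2 change 0.80, SE 0.17, edgeR adjusted p = 0.00082), whereas without dox Hey1 fell (log2 change -1.17, SE 0.158, edgeR adjusted p = 0.000168).

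**Figure D1:**
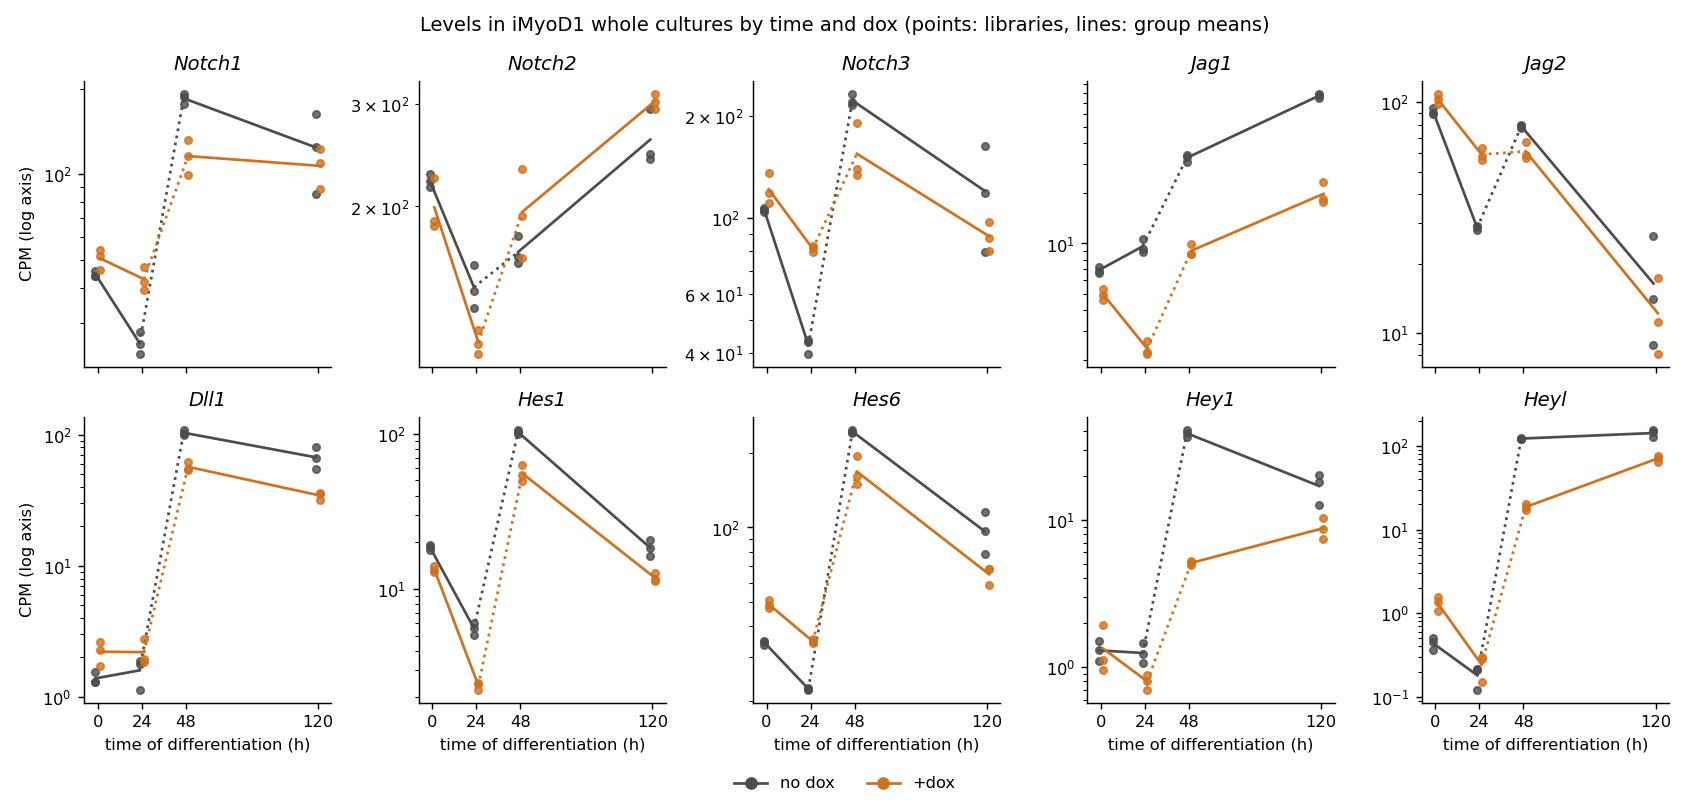
CPM of each gene (log axis) against hours of serum starvation (linear axis) in the whole cultures of iMyoD1. Points are libraries and lines join group means, with and without dox, and the dotted piece between 24 and 48 h joins libraries of different deposited tables. Dll1, Hey1 and Heyl lie under 3 CPM at 0 and 24 h and between 5.10 and 143 CPM as group means later.

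The main question was what elevated MyoD1 does to these genes. In undifferentiated cells the dox effects on members above 10 CPM were small. At 0 h, 5 genes rose and 2 fell, against 19.1% and 18.7% of all genes, and the largest change above 10 CPM was that of Hes6. Hes6 was 34.5, 35.1 and 33.8 CPM without and 47.5, 48.8 and 51 with dox (log2 change 0.52, SE 0.0627, edgeR adjusted p = 2.32e-05). Hes1 was 18.6, 17.9 and 19.3 CPM without and 13.2, 14.1 and 12.9 with dox (log2 change -0.47, SE 0.0849, edgeR adjusted p = 0.000687). The groups did not overlap for either gene, and Hes6 was the higher and Hes1 the lower with dox. The 5 include Heyl, at 0.358, 0.450 and 0.499 CPM without and 1.56, 1.06 and 1.35 with dox. It had 6 to 10 counts per no dox library and 22 to 39 per +dox library. It thus entered the test through its +dox libraries, so its call is not read further. Notch1, Notch3 and Jag2 rose by 0.20, 0.22 and 0.19, and Jag1 fell by 0.46 (edgeR adjusted p between 0.0168 and 0.034). Each of these 4 calls was lost when 1 of 3 to 5 libraries was left out (adjusted p between 0.0536 and 0.112). A fit that shared 1 spread over all 16 groups ended all 7 calls (adjusted p between 0.0746 and 0.814). Notch2, Dll1 and Hey1 did not pass the test, but without +dox replicate 1 Notch2 (-0.23, adjusted p = 0.000444) and Dll1 (0.84, adjusted p = 0.0368) did.

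After 24 h of serum starvation the dox effects ran in opposite directions within the pathway: 4 of 9 genes rose and 4 fell (31.1% and 31.7% of all genes). Jag1 was 9.30, 10.6 and 8.90 CPM without and 2.61, 2.18 and 2.23 with dox (log2 change -2.06, SE 0.126, edgeR adjusted p = 5.01e-08). The other Jagged gene, Jag2, was 29.1, 28.8 and 27.8 CPM without and 63.5, 58.8 and 56.0 with dox (log2 change 1.03, SE 0.0614, edgeR adjusted p = 4.19e-08). The 3 +dox libraries were thus the lower for Jag1 and the higher for Jag2, with no overlap in either. Notch3 was 43.2, 43.8 and 39.9 CPM without and 83.1, 79.3 and 81.5 with dox (log2 change 0.92, SE 0.0544, edgeR adjusted p = 3.94e-08), and Notch1 rose as well (log2 change 0.72, SE 0.0811, edgeR adjusted p = 9.17e-06). Hes1 fell from 5.04, 5.64 and 6.06 to 2.47, 2.44 and 2.25 CPM (log2 change -1.26, SE 0.138, edgeR adjusted p = 7.79e-06), and Hes6 rose (log2 change 0.61, SE 0.0552, edgeR adjusted p = 1.44e-06). At this time Notch1, Notch3, Jag2 and Hes6 were therefore above and Jag1 and Hes1 below their no dox levels. Notch2 fell slightly (log2 change -0.34, SE 0.0665, edgeR adjusted p = 0.000792), as did Hey1 at under 2 CPM (log2 change -0.67, SE 0.264, edgeR adjusted p = 0.0427). The Hey1 call was lost under DESeq2 (adjusted p = 0.0944), with no low-count filter (0.0832) and in 5 of 6 fits with 1 library left out, and Notch1, Notch2 and Hey1 did not pass with the spread shared over all groups. For 5 genes the dox effect at 24 h differed from the one at 0 h, more positive for Notch1, Notch3 and Jag2 and more negative for Jag1 and Hes1 (13.3% and 20.7% of all genes). For Jag1 the difference was -1.64 (SE 0.183, edgeR adjusted p = 3.05e-06). With the spread shared over all groups Jag1 alone of the 5 passed (adjusted p between 0.245 and 0.646 for the others).

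At 48 h 9 of the 10 genes fell with dox and 0 rose, against 28.7% and 27.9% of all genes, and 3 fell over 2-fold (8.46%). The median change was -0.79 for the 10 genes and 0.01 for the 13871 genes tested. Hey1 was 40.8, 38.8 and 36.6 CPM without and 4.91, 5.12 and 5.26 with dox (log2 change -2.95, SE 0.086, edgeR adjusted p = 9.29e-09). Heyl was 125, 121 and 122 CPM without and 20.2, 18.6 and 17.0 with dox (log2 change -2.73, SE 0.0767, edgeR adjusted p = 8.77e-09). For both repressor genes every +dox library was far below every no dox library. Jag1 fell from 30.7, 33.2 and 33.9 to 8.63, 8.61 and 9.88 CPM (log2 change -1.88, SE 0.0926, edgeR adjusted p = 8.65e-08). Hes1 fell from 106, 102 and 99.3 to 49.4, 62.9 and 54.4 CPM (log2 change -0.90, SE 0.0833, edgeR adjusted p = 6.57e-06), and Dll1 from 103, 99.0 and 109 to 62.0, 55.0 and 53.9 CPM (log2 change -0.88, SE 0.0754, edgeR adjusted p = 3.66e-06). The loss was smaller for Hes6, from 247, 239.8 and 243 to 150.0, 160.5 and 193 CPM (log2 change -0.55, SE 0.0919, edgeR adjusted p = 0.000447). Among the receptors, Notch1 was 192, 188 and 176 CPM without and 132, 116 and 99.5 with dox (log2 change -0.69, SE 0.0918, edgeR adjusted p = 9.47e-05), and Notch3 fell by 0.53. Jag2 fell by 0.38. Notch2, at 167 ± 9.31 and 196 ± 34.6 CPM, was the gene that did not pass (log2 change 0.22, SE 0.109, edgeR adjusted p = 0.115), and it was higher with dox when +dox replicate 3 was left out (0.33, adjusted p = 0.00671) or with no low-count filter (0.22, adjusted p = 0.0328). With the spread shared over all groups Notch1, Notch3 and Jag2 did not pass (adjusted p = 0.0701, 0.212 and 0.286).

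The direction at 48 h was therefore opposite to that at 24 h for several genes, and the difference was tested. It was negative for 7 genes and positive for 1 (20.6% and 22.7% of all genes). The 7 include Heyl, which had too few counts at 24 h to be tested there and entered this fit through its 48 h libraries, so its difference is not read further. For Notch1, Notch3 and Jag2 the dox effect went from 0.72, 0.92 and 1.03 at 24 h to -0.69, -0.53 and -0.38 at 48 h (differences -1.41, -1.45 and -1.41, edgeR adjusted p = 5.65e-07, 7.44e-07 and 1.44e-08). Hes6 turned likewise, from 0.61 to -0.55 (difference -1.16, SE 0.116, edgeR adjusted p = 9.94e-07). Jag1 and Hes1 were lower with dox at both times, with differences of 0.18 and 0.36 that did not pass (edgeR adjusted p = 0.361 and 0.0572). The Hes1 difference passed without 24 h no dox replicate 1 (0.42, adjusted p = 0.037) or without 48 h +dox replicate 1 (0.43, adjusted p = 0.0111). The positive difference, that of Notch2 (0.55), did not pass with the spread shared over all groups (adjusted p = 0.292). The dox effects at 24 and 48 h come from different tables, but each is a difference within its own table. The differentiation markers moved with the pathway at 48 h. All 8 myotube genes fell, their sum going from between 12230 and 13510 CPM to between 4973 and 5187, none of them at 0 in all libraries of a group, and Myog, the factor that starts terminal differentiation, fell from 1679 to 601 CPM. All 5 cycling genes fell too, from between 1013 and 1037 to between 295 and 310.0 CPM in sum, and of the 5 myoblast markers 3 fell and 1 rose. Their part in the changes of the 10 genes was not tested.

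In whole cultures at 120 h, 6 of the 10 genes were still lower with dox and 0 higher (23.7% and 21.4% of all genes), with a median of -0.62 against 0.00 over the 13627 genes tested. Jag1 was 77.7, 74.4 and 78.8 CPM without and 17.8, 18.5 and 23.3 with dox (log2 change -1.97, SE 0.125, edgeR adjusted p = 3.91e-06). Heyl was 155, 146 and 126 CPM without and 64.9, 76.2 and 71.7 with dox (log2 change -1.02, SE 0.106, edgeR adjusted p = 7.35e-05). Dll1 was 81.1, 66.3 and 54.5 CPM without and 31.9, 35.5 and 35.7 with dox (log2 change -0.98, SE 0.145, edgeR adjusted p = 0.000602). In each of these genes the lowest no dox library stood above the highest +dox library. Hey1, Hes1 and Hes6 fell by 0.97, 0.65 and 0.59 without overlap (edgeR adjusted p = 0.00439, 0.00461 and 0.00787). The receptors and Jag2 did not pass. The no dox replicates of Notch1, Notch3 and Jag2 were far apart: Notch3 was 164, 118 and 79.6 CPM without and 80.1, 97.8 and 87.8 with dox. No dox replicate 3 had the lowest value of Notch1, Notch3 and Jag2 in its group, and without it Notch1 and Notch3 were lower with dox (-0.44 and -0.69, adjusted p = 0.0244 and 0.00141), as was Notch3 with no low-count filter (-0.47, adjusted p = 0.0326). Without no dox replicate 1, Notch2 was higher (0.30, adjusted p = 0.0148). The dox effect was weaker at 120 than at 48 h for Hey1 (difference 1.98, SE 0.224, edgeR adjusted p = 1.56e-05) and Heyl (difference 1.71, SE 0.134, edgeR adjusted p = 4.96e-07), the only members for which this difference passed (16.8% of all genes in that direction), with Notch1 added when 120 h no dox replicate 1 was left out (0.70, adjusted p = 0.0228). For Jag1 the effects of -1.88 and -1.97 differed by -0.09 (SE 0.157, adjusted p = 0.697). At 120 h 5 of 8 myotube genes fell and 1 rose, with sums between 8194 and 12580 CPM without and 6232 and 7864 with dox, while all 5 cycling genes rose, from between 209 and 248 to between 413 and 482 CPM, and of the 5 myoblast markers 1 rose and 1 fell. Jag1, Dll1, Hes1, Hes6, Hey1 and Heyl were thus lower with dox at 48 h, where the cycling genes were lower, and at 120 h, where they were higher, and any part of these markers in the changes was not tested. The whole-culture comparisons share no libraries with one another, but each time step above shares its libraries with the dox comparisons at its ends.

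**Figure D2:**
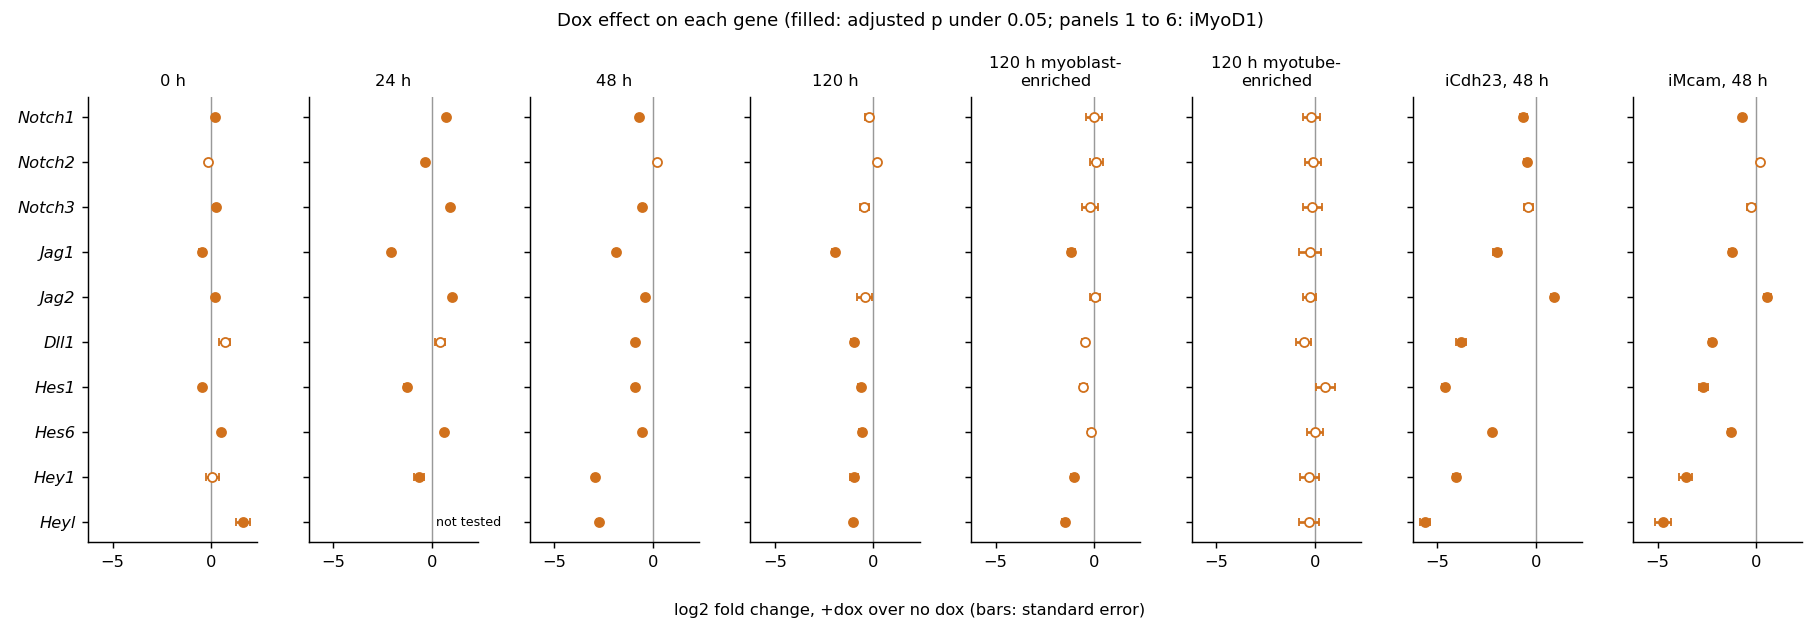
Log2 change with dox of the 10 genes in 8 comparisons, with standard errors as bars. Filled points passed edgeR's test at an adjusted p under 0.05. At 24 h Jag1 and Hes1 lie below 0 and Notch1, Notch3, Jag2 and Hes6 above, at 48 h every gene but Notch2 lies below 0, and Heyl was not tested at 24 h.

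The dox effect at 48 h was also measured in iCdh23, where Cdh23 itself did not pass the test for a rise, and in iMcam, where Mcam rose. In iCdh23, 8 of the 10 genes fell with dox and 1 rose (32.4% and 31.3% of all genes), and 6 fell over 2-fold (17%). The median change was -2.09, against 0.00 over 14227 genes. Heyl was 54.0, 53.4 and 82.3 CPM without and 1.42, 1.12 and 1.35 with dox (log2 change -5.61, SE 0.24, edgeR adjusted p = 6.21e-06). Hes1 was 58.4, 63.8 and 60.0 CPM without and 2.29, 2.25 and 2.85 with dox (log2 change -4.62, SE 0.128, edgeR adjusted p = 3.93e-06). Dll1 was 74.0, 75.3 and 58.6 CPM without and 4.34, 3.64 and 7.24 with dox (log2 change -3.77, SE 0.263, edgeR adjusted p = 2.14e-05). All no dox libraries of these genes were above 50 CPM and all +dox libraries below 8, with no overlap. Hey1 fell from 18.8 ± 2.07 to 1.15 ± 0.184 CPM, Hes6 from 119 ± 11.5 to 25.6 ± 0.647 and Jag1 from 21.6 ± 5.65 to 5.54 ± 0.453 (log2 changes -4.02, -2.21 and -1.96, edgeR adjusted p = 6.21e-06, 6.21e-06 and 0.000123). Jag2 was the gene that rose, from 57.0, 57.1 and 71.5 to 122, 114 and 113 CPM (log2 change 0.91, SE 0.113, edgeR adjusted p = 0.00031). The receptors moved least: Notch1 and Notch2 fell by 0.62 and 0.44 (edgeR adjusted p = 0.0113 and 0.0495), and Notch3 was 263 ± 61.9 CPM without and 205 ± 51.6 with dox (log2 change -0.36, SE 0.229, edgeR adjusted p = 0.202). The Notch2 call was lost in 4 of 6 fits with 1 library left out (adjusted p between 0.092 and 0.115) and with RLE scaling (0.0501), and with the spread shared over all groups neither Notch1 nor Notch2 passed (0.0713 and 0.142). Notch3 passed without no dox replicate 3 (-0.53, 0.0468).

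In iMcam, 7 genes fell with dox and 1 rose (24.8% and 24.2% of all genes), 6 of them over 2-fold (9.85%), with a median of -1.27 against 0.02 over 13731 genes. Heyl was 45.6, 46.7 and 93.3 CPM without and 1.67, 1.58 and 3.41 with dox (log2 change -4.75, SE 0.406, edgeR adjusted p = 0.000239). Hey1 was 18.1, 13.4 and 24.8 CPM without and 1.13, 1.17 and 2.21 with dox (log2 change -3.59, SE 0.326, edgeR adjusted p = 0.000279). Hes1 was 48.1, 52.3 and 67.5 CPM without and 6.90, 7.34 and 11.3 with dox (log2 change -2.68, SE 0.216, edgeR adjusted p = 0.000202). Replicate 3 was the highest of both groups for Heyl and Hes1, and the groups still did not overlap. Dll1, Hes6 and Jag1 fell by 2.27, 1.30 and 1.24, to 15.7 ± 3.38, 34.6 ± 4.50 and 15.9 ± 1.61 CPM, and Notch1 fell by 0.71. Jag2 rose from 32.6, 37.9 and 52.9 to 57.6, 60.9 and 58.8 CPM (log2 change 0.56, SE 0.165, edgeR adjusted p = 0.0251), a call lost in 5 of 6 fits with 1 library left out. Notch2 and Notch3 did not pass (adjusted p = 0.357 and 0.259). The replicate numbers paired the libraries of this line, and with the replicate as a block Notch3 fell too (-0.26, adjusted p = 0.0183).

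The dox effects of the lines at 48 h were compared directly, which sets libraries of different tables side by side although each effect is within a table. In iCdh23 the effect was more negative than in iMyoD1 for 6 genes and more positive for 1 (21.6% and 14.1% of all genes). It differed by -3.70 for Hes1, -2.87 for Dll1, -2.86 for Heyl and -1.65 for Hes6 (edgeR adjusted p = 2.58e-08, 3.88e-06, 2.19e-06 and 2.56e-06), and by -1.06 for Hey1 and -0.63 for Notch2 (0.000467 and 0.0348). The Notch2 difference was lost in 8 of 12 fits with 1 library left out. Jag2 fell with dox in iMyoD1 and rose in iCdh23 (difference 1.31, SE 0.134, edgeR adjusted p = 1.03e-05) and in iMcam (difference 0.93, SE 0.186, edgeR adjusted p = 0.0132). In iMcam the effect was more negative than in iMyoD1 for Hes1, Heyl, Dll1 and Hes6, by 1.78, 2.02, 1.40 and 0.76 (4 genes more negative and 1 more positive, against 4.06% and 2.35% of all genes). The Hes6 difference in iMcam was lost in 4 of 12 fits with 1 library left out, and with the spread shared over all groups neither Hes6 nor Jag2 passed (adjusted p = 0.223 and 0.323). For Jag1 the difference from iMyoD1 was -0.08 in iCdh23 (SE 0.219, edgeR adjusted p = 0.82) and 0.63 in iMcam (SE 0.192, 0.0697). Neither passed, but the iMcam difference passed under DESeq2 (adjusted p = 0.0345) and without iMcam no dox replicate 3 (0.81, adjusted p = 0.00475). Both lines lost myotube, cycling and myoblast markers with dox. In iCdh23 all 8 myotube genes fell, from between 4863 and 8015 to between 33.0 and 116 CPM in sum, and all 5 cycling genes, from between 640.1 and 979 to between 17.9 and 32.7 CPM. In iMcam 7 of the 8 and all 5 fell, from between 3615 and 8790 to between 460.4 and 1409 CPM and from between 612 and 777 to between 56.3 and 114 CPM. Of the 5 myoblast markers 4 fell in each line, from between 1707 and 1928 to between 371 and 440.2 CPM in sum in iCdh23 and from between 1305 and 1987 to between 501 and 768.5 in iMcam. No marker of these lists was at 0 in all libraries of these groups, and the part of these markers in the changes of Dll1, Hes1, Hes6, Hey1 and Heyl was not tested. Mcam also rose in iCdh23 (log2 change 2.97) and Cdh23 in iMcam (2.76), so the lines did not differ by 1 adhesion gene alone.

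**Figure D3:**
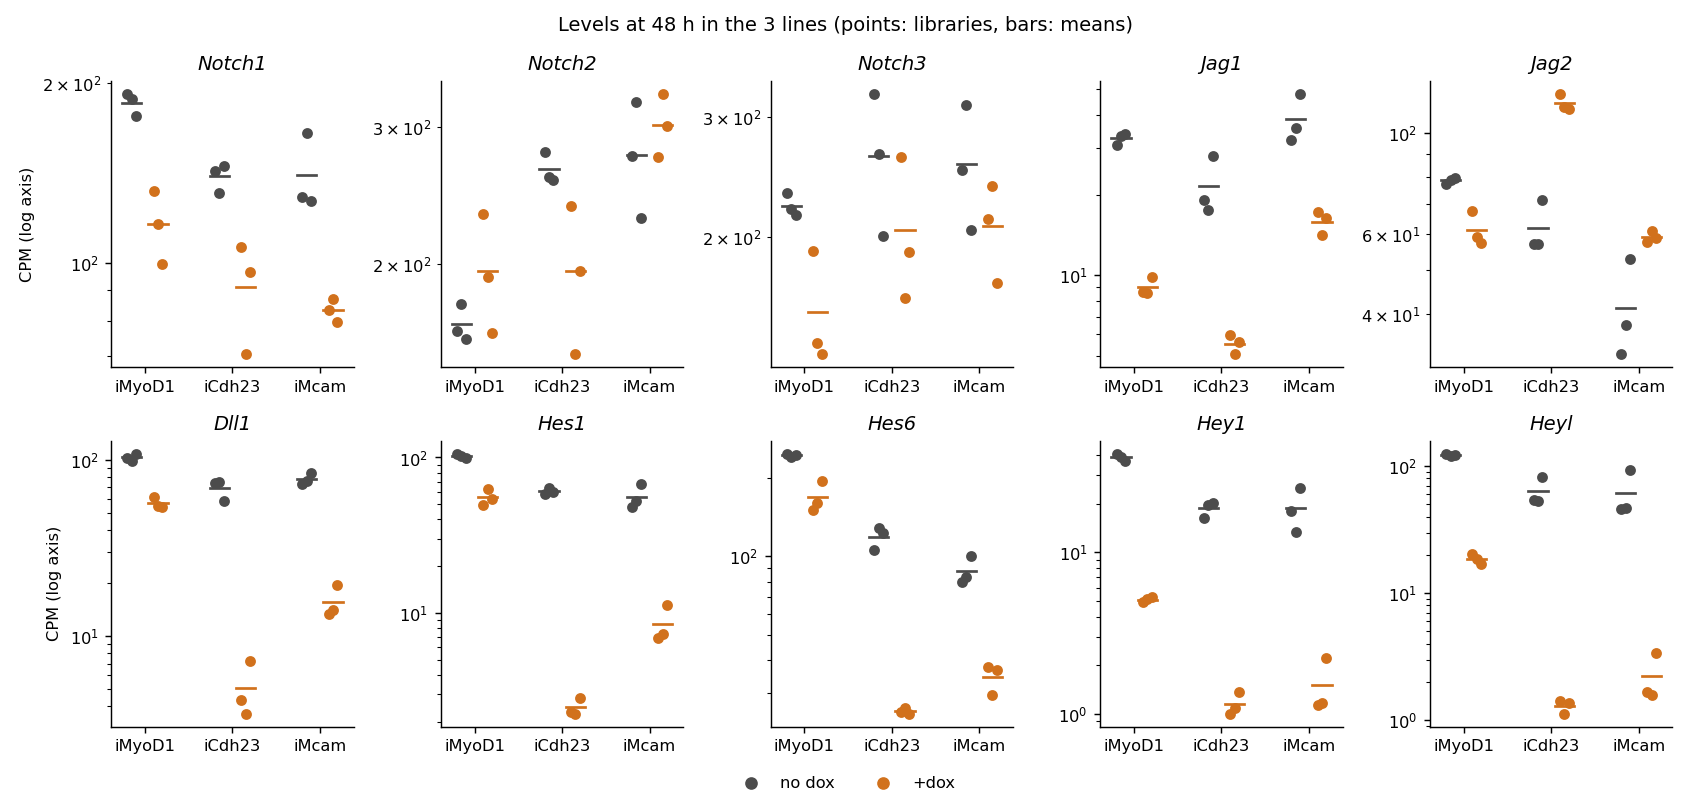
CPM of each gene (log axis) in iMyoD1, iCdh23 and iMcam at 48 h, without and with dox. Points are libraries and bars are group means. Hes1, Dll1, Hey1 and Heyl drop furthest in iCdh23, and Jag2 is lower with dox in iMyoD1 and higher in both other lines.

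The fractions at 120 h ask whether the dox effect lies in unfused cells or in myotubes. They are in another deposited table than the whole cultures. Without dox Hes1 was 18.4 CPM in the whole culture, 79.3 in the myoblast-enriched and 50.8 in the myotube-enriched fraction. Jag1 was 77.0, 37.3 and 26.8 CPM, whereas the whole-culture means of Notch3, Dll1 and Hey1 lay between the fractions. Levels of the fractions are therefore not read as parts of the whole culture. Before the fractions are described, 2 libraries have to be named. On a scale set by 451 genes that rose and 744 that fell with dox in the whole cultures at 120 h, where 0 is the mean of no dox and 1 that of +dox, the libraries labelled myotube-enriched lay at 0.37, 0.72 and 0.25 without and at 0.59, 0.15 and 0.77 with dox. Replicate 2 of each group thus lay on the side of the other. The myoblast-enriched libraries lay at 0.46, 0.26 and 0.36 without and at 0.72 and 0.74 with dox. The labels were kept. For the genes named, dox effects in the myotube-enriched fraction are also given without both replicate 2 libraries, a choice made after seeing the data. Comparisons between the fractions are also given without the replicate 2 library that each holds. The sieve separated the fractions without dox by 8 myotube genes, whose sum was between 11850 and 20030 CPM in the libraries over 40 µm and between 5705 and 8883 in those under 40 µm, but 1 of the 8 passed the test. The 5 myoblast markers did not follow the labels in sum, with between 2368 and 3026 CPM over 40 µm and between 1595 and 1961 under 40 µm. Most of that sum was Des, which myotubes also express, at 2179 and 1004 CPM, whereas Myod1, Myf5, Cdh15 and Pax7 had the lower means over 40 µm (log2 changes -0.14, -0.85, -0.27 and -0.60), and 0 of the 5 passed.

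In the myoblast-enriched fraction 3 genes fell with dox and 0 rose, against 2.52% and 1.82% of all genes. Heyl was 76.3, 80.4 and 77.0 CPM without and 24.0 and 30.8 with dox (n = 2, log2 change -1.49, SE 0.151, edgeR adjusted p = 0.0118). Jag1 was 32.5, 39.8 and 39.6 CPM without and 15.5 and 17.9 with dox (log2 change -1.15, SE 0.165, edgeR adjusted p = 0.0199). Hey1 was 19.8, 17.7 and 16.7 CPM without and 9.05 and 8.64 with dox (log2 change -1.02, SE 0.174, edgeR adjusted p = 0.0281). Both +dox libraries lay below all no dox libraries for each of them. Dll1, at 77.5, 70.5 and 69.1 CPM without and 48.1 and 54.8 with dox, and Hes1, at 86.3, 63.4 and 88.3 and 54.1 and 54.5, did not overlap either but did not pass (log2 changes -0.48 and -0.54, edgeR adjusted p = 0.0892 and 0.129). The 3 calls are fragile, since each was lost without +dox replicate 2, +dox replicate 3 or no dox replicate 3 (adjusted p between 0.051 and 0.182). The first 2 of these leave a single +dox library, which is then assumed to vary like the others. Hes1 passed without no dox replicate 2 (-0.68, adjusted p = 0.029) and with no low-count filter (-0.55, adjusted p = 0.0337), and Dll1 under DESeq2 (adjusted p = 0.0233). Among the differentiation markers Myog fell too, from 1068, 1974 and 1367 CPM without to 488 and 602 with dox (log2 change -1.42, SE 0.277, edgeR adjusted p = 0.0378). The 8 myotube genes summed to between 5705 and 8883 CPM without and between 4620.0 and 4949 with dox. Myog was the 1 of these 8 that passed, 0 of 5 myoblast and 0 of 5 cycling markers did, and their part in the 3 calls was not tested.

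In the myotube-enriched fraction 0 of the 10 genes passed with dox under edgeR, 0 had an unadjusted p under 0.05 (0.56% of all genes did), and 0 of 14113 genes passed (0%). DESeq2 and the fit without a low-count filter called 1 gene each over all genes. Heyl was 49.4, 13.6 and 39.5 CPM without and 16.9, 41.5 and 23.2 with dox, and Jag1 was 39.7, 12.5 and 28.2 and 8.76, 35.7 and 22.2. Hes1 was 72.0, 28.9 and 51.3 CPM without and 121, 44.9 and 46.8 with dox. The groups overlapped for all 10 genes, with log2 changes between -0.57 (Dll1) and 0.53 (Hes1). Without both replicate 2 libraries Jag1 and Heyl were each at -1.11, Dll1 at -1.01 and Hey1 at -0.79, and still 0 genes passed (edgeR adjusted p = 0.576, 0.431, 0.556 and 0.671, 2 libraries against 2). The difference between the dox effects of the fractions passed for none of the 10 genes under edgeR (adjusted p = 1 for each, 0 of 15008 genes, 0%) and for none with both libraries left out. A difference in the dox effect between the fractions was thus not shown by these libraries.

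Between the fractions without dox, 0 members passed (0.592% of 14023 genes did), and 3 had an unadjusted p under 0.05 (16.1% of all genes did). Hey1 was 19.8, 17.7 and 16.7 CPM in the myoblast-enriched and 8.58, 3.75 and 5.70 in the myotube-enriched libraries (log2 change -1.58, SE 0.293, edgeR adjusted p = 0.0681). The replicate numbers paired these libraries, and with the block Hey1 was lower in the myotube-enriched fraction (-1.64, adjusted p = 0.017), as it was under DESeq2, without the low-count filter and with the spread shared over all groups. Without myotube-enriched replicate 2 Hey1 was at -1.33 (adjusted p = 0.075), and without replicate 1 at -1.93 (adjusted p = 0.0241). Heyl was 77.9 ± 2.20 CPM in the myoblast-enriched and 34.2 ± 18.5 in the myotube-enriched fraction (log2 change -1.17, SE 0.389, edgeR adjusted p = 0.207), Dll1 was 72.4 ± 4.51 and 46.0 ± 11.8 (log2 change -0.64, SE 0.199, edgeR adjusted p = 0.185), and Hes6 was 138 ± 9.21 and 163, 153 and 219 (log2 change 0.39, SE 0.173, edgeR adjusted p = 0.315). Heyl passed with the spread shared over all groups (-1.19, adjusted p = 0.00728). Without myotube-enriched replicate 2 Heyl was at -0.80, Dll1 at -0.44 and Hes6 at 0.49 (edgeR adjusted p = 0.0926, 0.22 and 0.276). With dox 0 members passed and 0 of 14291 genes did (0%), and 0 members had an unadjusted p under 0.05 (1.27% of all genes did). Without myotube-enriched replicate 2 still 0 members passed, while Heyl moved from 0.01 to -0.44 and Hes1 from 0.41 to 0.65.

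**Figure D4:**
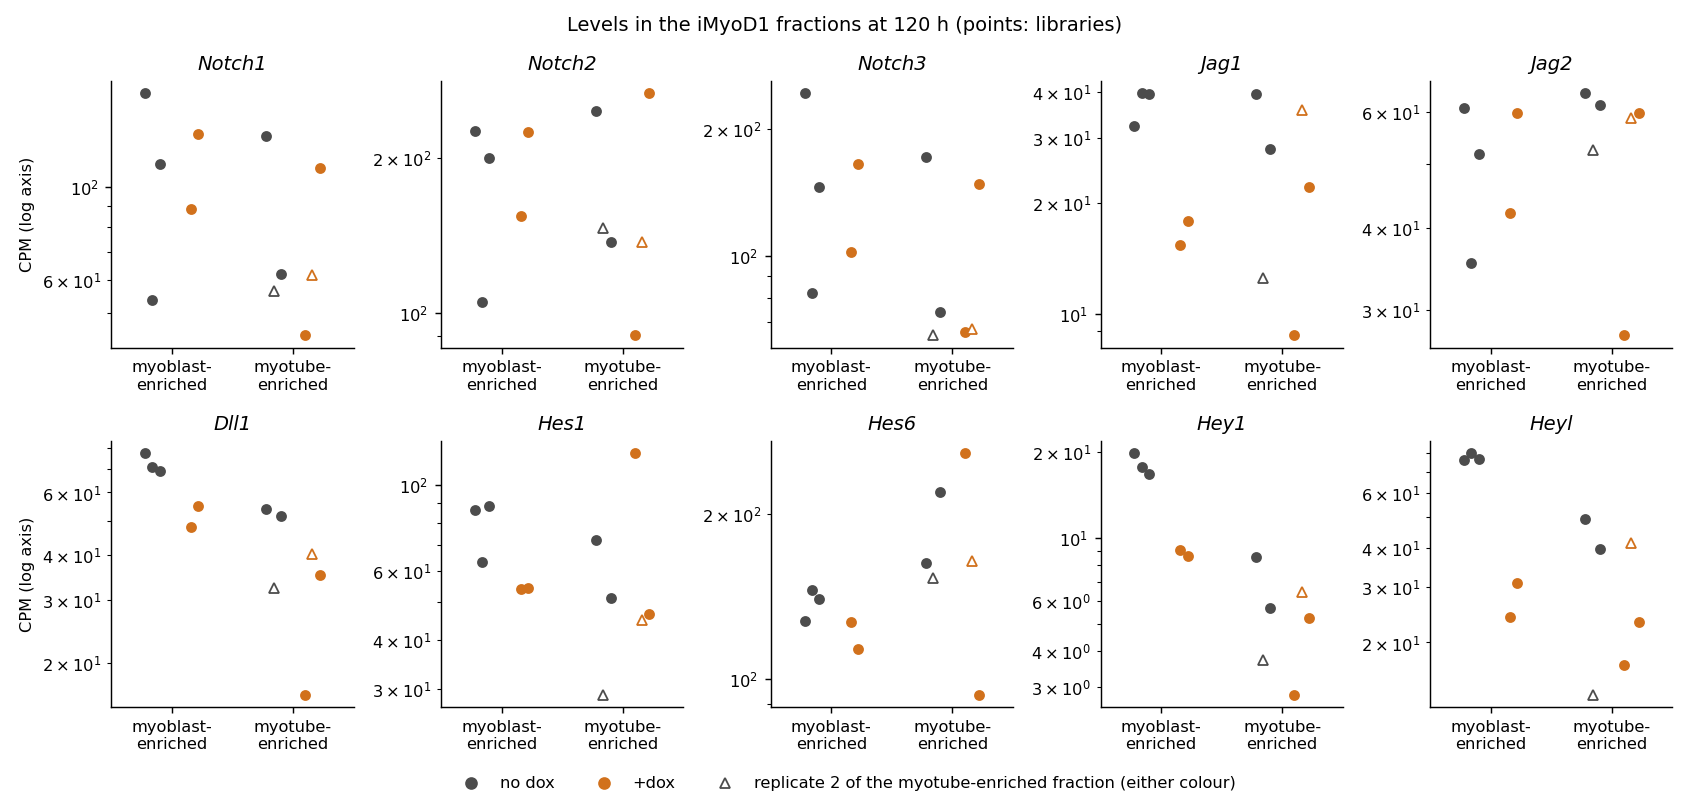
CPM of each gene (log axis) in the fractions under 40 µm (myoblast-enriched) and over 40 µm (myotube-enriched) at 120 h. Points are libraries and open triangles mark replicate 2 of the myotube-enriched groups. Heyl, Jag1 and Hey1 are lower with dox in the myoblast-enriched fraction, and the myotube-enriched groups overlap for every gene.

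Of 49 other genes of the pathway (nuclear effectors, glycosyltransferases, proteases, endocytosis and ubiquitination genes, and the remaining receptors, ligands and Hes and Hey genes), changes went both ways. With dox 13 of 41 tested rose and 5 fell at 0 h (19.1% and 18.7% of all genes), and 19 of 41 rose and 9 fell at 24 h (31.1% and 31.7%). At 48 h 15 of 40 rose and 11 fell (27.9% and 28.7%), and at 120 h 10 of 40 rose and 14 fell (21.4% and 23.7%). In iCdh23 16 of 44 rose and 10 fell (31.3% and 32.4%), and in iMcam 9 of 39 rose and 8 fell (24.2% and 24.8%). Nrarp, a Notch target that limits Notch signalling, gave the largest change of the list at 48 h. It was 18.2, 19.9 and 21.9 CPM without and 1.88, 1.61 and 1.38 with dox (log2 change -3.61, SE 0.138, edgeR adjusted p = 2.74e-08), the same direction as Hey1 and Heyl. It also fell in iCdh23 and iMcam (-1.87 and -2.40, edgeR adjusted p = 0.000144 and 0.00203). At 24 h it went up instead, from 0.811 ± 0.203 to 2.38 ± 0.268 CPM (log2 change 1.51, SE 0.241, edgeR adjusted p = 0.000167). Rbpj, the DNA-binding effector, was 118, 135 and 120.2 CPM without and 44.7, 44.9 and 45.8 with dox at 24 h (log2 change -1.49, SE 0.0628, edgeR adjusted p = 2.86e-09). Followed further, a choice made after its values were seen, Rbpj was also lower with dox at 0, 48 and 120 h and in iCdh23 and iMcam (log2 changes -0.54, -0.56, -1.09, -0.93 and -0.45, edgeR adjusted p between 2.1e-05 and 0.00342).

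Among genes that act on ligands, Neurl1a, a ubiquitin ligase for Notch ligands, rose with dox at 0 h (0.88) and fell at 120 h from 195 ± 47.8 to 66.4 ± 5.18 CPM (log2 change -1.57, SE 0.165, edgeR adjusted p = 8.16e-05), in iCdh23 (-2.52) and in iMcam (-1.79). Its relative Neurl1b fell at 48 h (-1.49) and in iMcam (-1.89), and Mib2, of the same function, fell at 120 h (-1.88), as did Fbxw7, which marks the Notch intracellular domain for degradation (-1.50). The Groucho-type corepressors Tle2 and Tle4 moved apart at 48 h (1.53 and -1.55), and Tle4 also fell at 120 h (-1.39). Of 10 protease genes, 6 rose and 0 fell at 0 h (19.1% and 18.7% of all genes) and at 24 h (31.1% and 31.7%), among them Psen2 (0.69 at 0 h) and Aph1c (0.84 at 0 h and 1.86 at 24 h), parts of gamma-secretase. At 48 h 3 of the 10 rose and 1 fell (27.9% and 28.7% of all genes), and at 120 h 2 rose and 2 fell (21.4% and 23.7%). Mfng, a glycosyltransferase that modifies Notch receptors, was 0.138 ± 0.0539 CPM without and 4.66 ± 0.639 with dox in iCdh23. Its no dox level was too low for the low-count filter. It thus entered the test through its +dox libraries, and its call is not read further. Mfng was also the only other pathway gene called in the myoblast-enriched fraction (1 of 41 tested, against 1.82% of all genes that rose). It was 0.202, 0.387 and 0.217 CPM without and 2.46 and 1.11 with dox. There too it entered through its +dox libraries, so the call is not read further. Dtx4 fell in iCdh23 (-2.59), and Dlk2, a Notch ligand-like gene, fell with dox at 0 and 24 h (-0.88 and -1.53). The remaining Hes and Hey genes were nearly silent: Hes2, Hes3, Hes5 and Hey2 reached at most 0.191, 0.128, 0.051 and 0.45 CPM in any library and Hes7 1.28. Of these 5, Hes7 alone was ever tested. It was called in iCdh23, at 0.210 ± 0.125 CPM without and 0.907 ± 0.362 with dox. There it entered the test through its +dox libraries, so this call is not read further.

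Levels of different genes were compared only per transcript length, as TPM, which divides counts by transcript length before scaling. Hes6 had the highest TPM of the 10 in every group except iCdh23 and iMcam with dox. It was 48.1 TPM at 0 h, 26.2 at 24 h, 293 at 48 h and 137 at 120 h without dox. At 48 h without dox Hes1 came next (118 TPM), then Dll1 (60.6), Notch3 (45.1) and Heyl (44.3), and Jag1 was last (11.3). At 0 h the order began with Hes6, Notch2 (40.1) and Jag2 (34.0), while Hes1 (25.2), Notch3 (25.1) and Notch1 (9.02) were lower. In iCdh23 with dox Notch3 (69.2 TPM) and Jag2 (61.3) stood above Hes6 (50.8), and in iMcam with dox Notch2 (74.7) and Notch3 (67.0) above Hes6 (65.9).

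The genes whose mean log2(CPM + 0.5) over the 16 groups was most like that of each member were searched among 10886 genes, as a description over groups that share tables and lines. Heyl was most like Scml4, Sh3glb1 and Htr2b (Pearson r = 0.985, 0.978 and 0.975), and Dll1 most like Rbm24, Iffo1 and C1qtnf3 (0.981, 0.979 and 0.978). For Hey1 the closest gene was Heyl itself (0.951), the only case of a member being closest to another. Hes6 was closest to Btbd17 (0.97), Hes1 to Slc29a1 (0.963), Jag1 to Fbn1 (0.946), Jag2 to Jak3 (0.933), Notch3 to Adamts4 (0.93), Notch2 to Sh3pxd2b (0.925) and Notch1 to Cd82 (0.922). Against Myog the same measure was 0.97 for Dll1 and 0.92 for Heyl, and -0.44 for Jag2.

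Some genes share their position with others, and the strand setting of the counting is not stated. In GENCODE vM21 (GRCm38) Dll1 (chr17:15367354-15376872, minus strand) overlaps A930024N18Rik, which reached 1.73 CPM, while the lowest Dll1 value was 1.14 CPM, so the low Dll1 levels at 0 and 24 h are uncertain. Notch1 (chr2:26457903-26516663, minus strand) overlaps Gm13568 and 0610009E02Rik, Notch2 (chr3:98013527-98150361, plus strand) overlaps Gm42820, and Notch3 (chr17:32120820-32166852, minus strand) overlaps Gm17276, none of which exceeded 9.28 CPM. Jag1, Jag2, Hes1, Hes6, Hey1 (chr3:8663359-8667256, minus strand) and Heyl (chr4:123233556-123249875, plus strand) had no such neighbour.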

How the data were processed

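PolyA RNA of C2C12 cells was sequenced after NEBNext Ultra II library preparation. Per the labels and the study's methods, the authors ran nf-core/rnaseq and deposited 3 transcript tables of estimated counts from Salmon, of which 33.25% are not whole and which carry no scaling to depth or length. The build is mm10 per the labels, and the annotation release and the strand setting are not given in the sources used here. GENCODE vM21 (GRCm38) matched 98.72% of the 109617 transcripts and gave lengths, positions and overlaps. Multi-mapping is resolved by Salmon's model, so reads shared by similar transcripts are split by estimate.

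The transcripts of a gene symbol were added up, and the sums rounded to whole numbers. Groups came from the labels. Each pair of groups (16 comparisons) was fitted over all genes with edgeR 4.0.16 in R 4.3.3 (filterByExpr, TMM, quasi-likelihood test, Benjamini-Hochberg adjustment), and 6 differences between dox effects were tested as contrasts over 4 groups. A call is an adjusted p under 0.05, and a change over 2-fold was counted separately. With 3 libraries against 3 an exact permutation test cannot go below p = 0.1. A group with at most 3 counts in every library was treated as at the floor. TPM used transcript lengths from GENCODE. The 10 genes, the pathway list and the marker lists were chosen with earlier results of these data known. In each comparison all 10 are described, and of the other pathway genes at most the 4 with the largest change among those called with a mean of at least 1 CPM were named, with Rbpj and Hes7 followed after their values were seen. Genes of like pattern were searched among those with a mean of at least 5 CPM.

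Alternatives were DESeq2 1.42.0, RLE scaling, no low-count filter, 1 fit of all 16 groups, the replicate number as a block, and each library left out in turn (94 fits of pairs and 71 of differences). Whether replicate numbers pair the libraries was judged from how same-numbered libraries deviate together from their group means (correlation). By a rule of over 0.1 in each of 3 pairs they paired iCdh23 (0.107 to 0.257), iMcam (0.336 to 0.504) and the fractions without dox (0.154 to 0.487). In the other comparisons of 3 pairs they did not. No library was a copy of another in its group: a chi-square between replicates, divided by the number of genes, was 3.04 to 410.48 over 46 pairs. Libraries of different groups were not compared in this way. In a test on simulated data, where 200 genes had a 4-fold change, edgeR found 197 of them and made 23 false calls for dox at 24 h (14078 genes), 182 with 10 for the myoblast-enriched fraction (14249 genes) and 189 with 12 for the difference between 24 and 0 h (14448 genes). DESeq2 found 195, 187 and 193 of the 200 in the same settings and made 22, 45 and 18 false calls. Smaller changes and libraries that go against their label were not simulated, so these figures do not cover them. Promoter sequences came from RefSeq (GRCm38.p6). Tables were handled in Python 3.11.15 with pandas 2.3.3 and numpy 2.4.6. Counts carry no molecular identifiers.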

Additional observations from a re-analysis of the deposited data

Results flagged for a closer look

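Differences between dox effects are given here where they passed edgeR's test of the difference and exceeded 1 on the log2 scale. Between 24 and 0 h the dox effect differed for Jag1, by -1.64. Between 48 and 24 h it differed by -1.41 for Notch1, -1.45 for Notch3, -1.41 for Jag2, -1.26 for Dll1, -1.16 for Hes6 and -2.27 for Hey1. The value for Heyl was -3.17, but Heyl had 3 to 14 counts per library at 24 h, was not tested there and entered this fit through its 48 h libraries, so this value supports no difference. Between 120 and 48 h it differed by 1.98 for Hey1 and 1.71 for Heyl. Between iCdh23 and iMyoD1 at 48 h it differed by 1.31 for Jag2, -2.87 for Dll1, -3.70 for Hes1, -1.65 for Hes6, -1.06 for Hey1 and -2.86 for Heyl. Between iMcam and iMyoD1 at 48 h it differed by -1.40 for Dll1, -1.78 for Hes1 and -2.02 for Heyl. The comparisons between lines and between 24 and 48 h set effects from different deposited tables side by side, and a part of the tables in these differences was not tested.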

How the results depend on the processing

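No result changed direction while called. The count of genes called of the 10 was within 1.5 times of the reported one under most alternatives. With the spread shared over all 16 groups it was 0 in place of 7 for dox at 0 h, 5 in place of 8 for dox at 24 h, 1 in place of 5 for the difference between 24 and 0 h and 3 in place of 5 for iMcam against iMyoD1. Between the fractions without dox it was 0 as reported, 1 under DESeq2, without the low-count filter and with the replicate block, and 2 with all groups. In the myoblast-enriched fraction the replicate block gave 6 in place of 3 (its 2 pairs had correlations of 0.391 and 0.53, but 2 pairs are fewer than the rule needs, so whether the numbers pair these libraries was not settled), with Notch1 (0.49), Dll1 (-0.43) and Hes1 (-0.45) added. In the paired comparisons the block changed no call beyond Notch3 in iMcam and Hey1 between the fractions. With 1 library left out the counts were 3 to 8 for dox at 0 h, 7 to 8 at 24 h, 9 to 10 at 48 h, 6 to 8 at 120 h, 0 to 4 in the myoblast-enriched fraction, 0 in the myotube-enriched fraction, 8 to 10 in iCdh23, 7 to 8 in iMcam and 0 to 1 between the fractions without dox. Over single genes, DESeq2 left 214 results on their side of the threshold (3 gained and 1 lost a call), RLE scaling 216 (0 and 2), no low-count filter 212 (4 and 2), the block 210 (6 and 2), all groups in 1 fit 185 (2 and 31) and the fits with 1 library left out 1560 (16 and 62). Over all genes, rising and falling calls at 0 h went from 2592 and 2530 to 514 and 315 with all groups, at 24 h from 4384 and 4464 to 2341 and 2441, and at 48 h from 3865 and 3980 to 2461 and 2342. In the myoblast-enriched fraction they went from 260 and 359 to 677 and 939 under DESeq2, 776 and 1202 without the filter and 1980 and 2071 with the block. Between the fractions without dox they went from 81 and 2 to 597 and 176 under DESeq2. The cause of these shifts was not tested. RLE or DESeq2 scaling moved the median of all genes by at most 0.056. Depth limits Heyl, Hey1 and Dll1 at 0 and 24 h, where Heyl had 3 to 39 counts per library.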
